A study of Mus musculus with 6 samples.

Results

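The transcriptome described here is that of C2C12 cells carrying a scrambled control hairpin (shScr) at 48 h of differentiation, which is 2 of the 6 libraries of the series. C2C12 is an immortalised mouse myoblast line that leaves the cell cycle and fuses into multinucleated myotubes when growth serum is replaced by low horse serum. The 2 control libraries were chosen by their sample titles, and values of all transcripts of a gene were added up. The other 4 libraries carried hairpins against the Pkm1 or the Pkm2 splice form of pyruvate kinase (shPkm1 and shPkm2, 2 libraries each). The labels call the controls wild type and the others Pkm1 and Pkm2 knockdown. All cells were stably transfected with a hairpin construct, so the controls show a hairpin-carrying line and not untouched C2C12. All groups had 48 h in medium with 2% horse serum and an insulin, transferrin and selenium supplement. Neither the number of clones nor separate cultures are given, so p-values measure the spread between these libraries, which may be technical. With bulk RNA, fewer cells of a type and less RNA per cell cannot be told apart.

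Muscle differentiation is driven by basic helix-loop-helix factors of the MyoD family: Myod1 and Myf5 mark committed myoblasts and Myog marks the step to the myocyte. Myocytes then switch on the membrane fusion proteins and the contractile machinery, a repeating array of actin thin filaments and myosin thick filaments called the sarcomere. Most sarcomeric proteins are made by several paralogues, with embryonic, slow, cardiac and adult fast forms that succeed each other during development.

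The control libraries held 18436414 and 19289625 estimated counts, within the range of 18216896 to 19796036 over all 6 libraries, and covered 17558 genes. Levels are TPM, a unit scaled to transcript length and library total. At 1 TPM or more 10866 genes were detected in both. A level of at least 100 TPM was reached by 1221 genes and one of at least 1000 TPM by 153, while 2321 genes had no count in either library. The labelled cell type was checked against marker genes. The 9 defining markers of differentiated muscle summed to 29904 TPM in replicate 1 and 23066 in replicate 2, and 5 myoblast markers summed to 635 and 748 TPM. The summed markers of adipocytes, endothelium, epithelium, osteoblasts, and macrophages and leukocytes lay between 0.05 and 1.97 TPM, with 8 of those 20 genes at 0 in both libraries. Single markers shared with other tissues were present: Sox9 at 13.0 and 15.3 TPM, Tubb3 at 15.6 and 29.0 TPM, and Smtn at 122 and 117 TPM. The labels say myoblasts, and the profile held the defining genes of differentiated muscle at high levels.

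The most abundant messages were those of thin-filament and motor proteins, of the ribosome, and of glycolysis. Tmsb10, which encodes a small actin-binding thymosin, led in both libraries with 46129 TPM in replicate 1 and 34614 in replicate 2. Gapdh, the glycolytic glyceraldehyde-3-phosphate dehydrogenase, followed with 18223 and 15525 TPM. Rpl41, a ribosomal protein of the large subunit, had 14369 and 11996 TPM. All of these were higher in replicate 1. The skeletal alpha-actin gene Acta1 came next with 15317 and 10686 TPM. Mylpf, the fast regulatory myosin light chain, had 14249 and 10408 TPM. Lgals1, the secreted lectin galectin-1, ran the other way with 10090 and 11217 TPM. The elongation factor Eef1a1 was nearly equal in the libraries (8526 and 8507 TPM). Of the 25 genes with the highest mean TPM, 6 belong to the contractile apparatus or the smooth muscle actin gene (Acta1, Mylpf, Acta2, Tnnc1, Tpm2 and Actc1), and all 6 were lower in replicate 2, as were 13 of the other 19. Actc1, the cardiac alpha-actin gene, had the largest ratio between the libraries among the 25, with 7821 and 3537 TPM. Together the 25 genes took 24.6% of all TPM in replicate 1 and 20.6% in replicate 2 (22.6% ± 2.80, SD, n = 2).

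**Figure D1:**
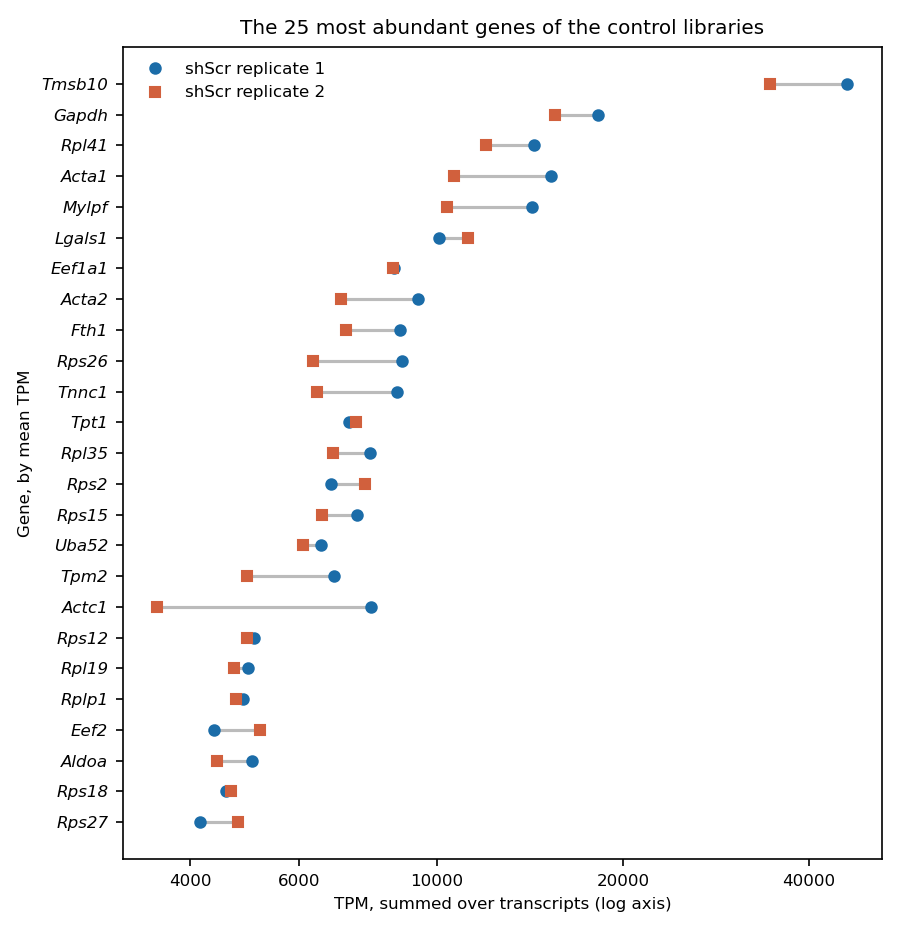
Level of the 25 genes with the highest mean TPM in the 2 control libraries, with TPM on a log axis and 1 marker per library. Tmsb10 is highest in both, and Actc1 shows the widest gap on this log axis, with 7821 TPM in replicate 1 and 3537 in replicate 2.

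By function, 60 sarcomere genes took 9.04% of all TPM in replicate 1 and 6.58% in replicate 2. Genes of the cytosolic ribosome and the elongation factors (87 genes) took 22.7% and 21.7%, which is a narrower gap. A list of 33 genes of energy buffering and glycolysis took 4.14% and 3.76%, and 30 oxidative phosphorylation genes took 1.70% and 1.77%. The list of 54 interferon response genes took 0.800% and 0.941%. The 62 cell cycle genes took 0.236% and 0.273%. In the hairpin libraries the sarcomere share was 3.03% and 3.26% in shPkm1 and 0.400% and 0.378% in shPkm2, so the controls had the highest share of the 3 groups, with no overlap between libraries.

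Among the myogenic regulators the profile was that of Myog rather than of Myf5 or Pax7. Myog had 2126 TPM in replicate 1 and 2051 in replicate 2. Myod1, the factor that commits cells to muscle, had 294 and 306 TPM. Myf5, which marks early myoblasts, had 11.6 and 13.4 TPM, and the late factor Myf6 had 1.24 and 0.49 TPM from 18 and 7 counts. Myog thus took 87.4% and 86.5% of the TPM of the 4 factors. Pax7, the satellite cell factor, had 0.72 and 0.42 TPM, which is 41 and 27 counts. Mymk (myomaker) and Mymx (myomixer), the membrane proteins that fuse myocytes, had 2630 and 2565 TPM and 464 and 419 TPM. Mymk was therefore among the 153 genes above 1000 TPM. Of the Mef2 factors, which act with MyoD on muscle promoters, Mef2d led with 84.6 and 94.2 TPM ahead of Mef2a with 63.5 and 67.3. Mef2c was far lower, with 5.07 TPM in replicate 1 and 1.34 in replicate 2. Twist1 and Pax3 were at or near 0 (at most 0.02 TPM).

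Each of 47 families of muscle paralogues was read as shares of the summed TPM of the family. The leading member took over 50% in both libraries in 41 families and over 90% in 17, and it was the same gene in both libraries in 46. The exception was Mbnl, the muscleblind splicing factors, where Mbnl1 (13.7 and 15.2 TPM) and Mbnl2 (13.4 and 15.4 TPM) were level. In the calcium ATPase regulator family Mrln was the sole member analysed here, so its share carries no information. Of 174 family names, 8 were not analysed here.

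**Figure D2:**
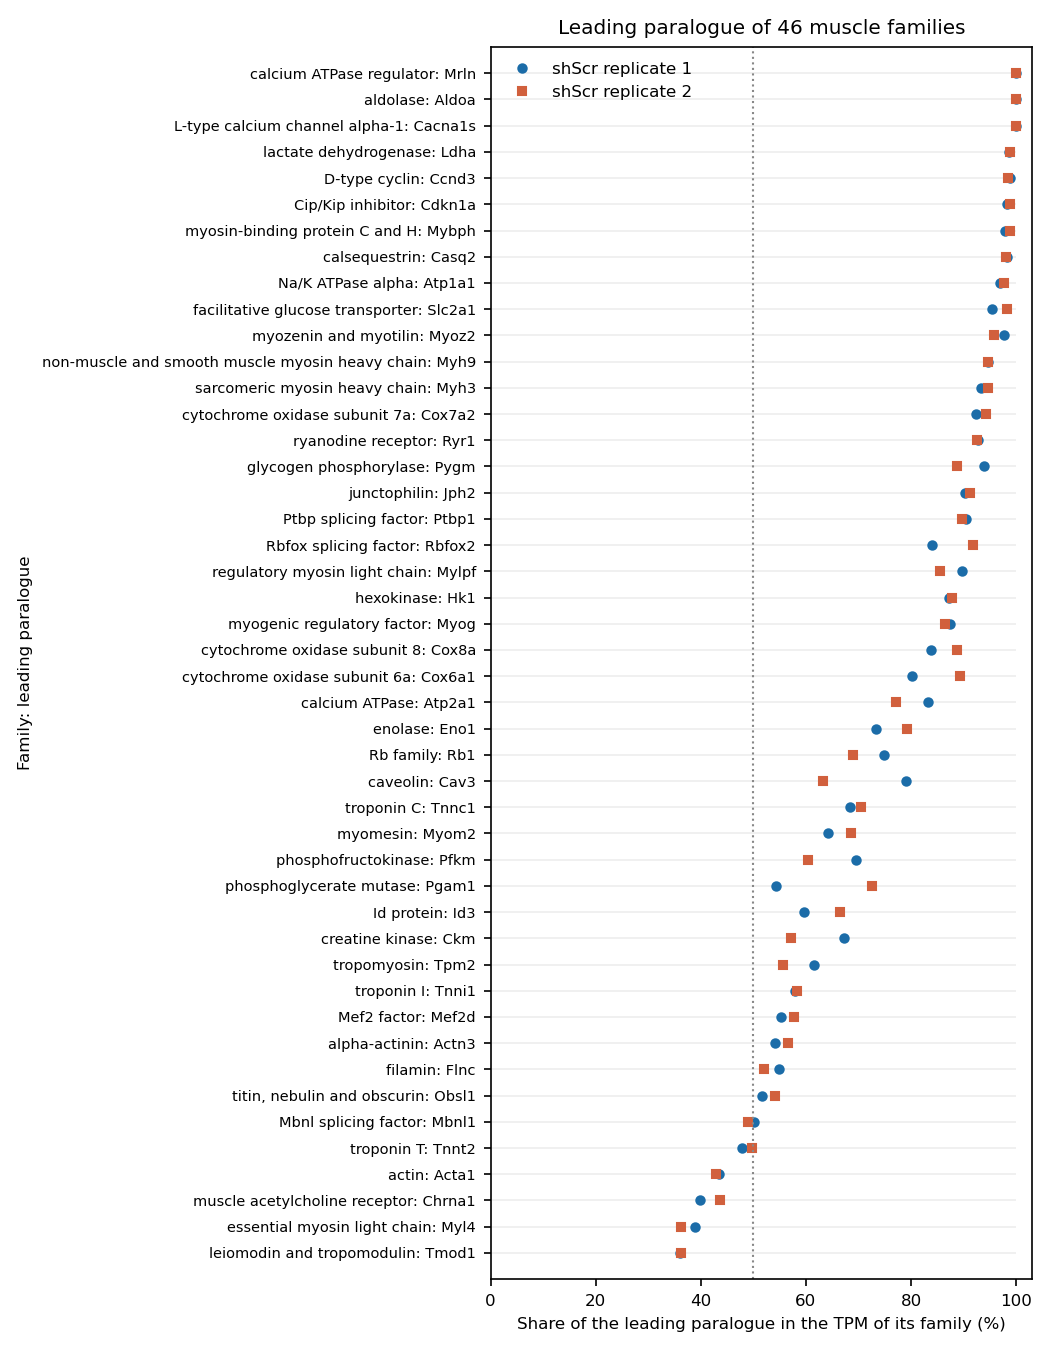
Share of the leading paralogue in the summed TPM of its family in percent, for 46 of the 47 families and both control libraries, with a dotted line at 50%. Most leaders lie above the line in both libraries, while Chrna1, Acta1, Myl4, Tmod1 and Tnnt2 lead with less. Pgam1 (54.4% and 72.6%), Cav3 (78.9% and 63.2%) and Ckm (67.3% and 57.2%) show wide gaps between libraries.

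Among motor proteins the embryonic form prevailed. Myh3, the embryonic myosin heavy chain, had 1582 TPM in replicate 1 and 1318 in replicate 2, or 93.4% and 94.6% of the sarcomeric heavy chains. The adult fast form Myh1 (34.3 and 32.1 TPM), the perinatal form Myh8 (36.2 and 14.6 TPM) and the slow form Myh7 (26.1 and 19.6 TPM) each held under 3% in both libraries. The order of Myh1 and Myh8 changed between the libraries, so these neighbours are not told apart. The adult fast forms Myh4 (5.73 and 2.19 TPM) and Myh2 (1.84 and 1.28 TPM) were lower still. The embryonic, perinatal and adult fast genes lie in a cluster on chromosome 11, Myh3 at chr11:67078273-67102291 and Myh8 at chr11:67277124-67308634 (GRCm38). The coding sequence of Myh3 matched that of Myh8 at 80.5% of aligned bases, whereas Myh1 and Myh2 matched at 91.0%, so reads of the rare adult forms can be shared among them and their values are less certain. Among non-muscle heavy chains Myh9 led with 179 and 267 TPM.

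Of the light chains that sit on the myosin neck, the fast regulatory chain Mylpf took 89.7% and 85.5% of its family. The essential chains were mixed. The embryonic and atrial chain Myl4 led with 4188 and 2967 TPM, the ubiquitous Myl6 had 2634 and 2759, the fast chain Myl1 had 2369 and 1624, and Myl6b had 1559 and 854.5. The ranges of Myl6 and Myl1 did not overlap, and those of Myl4 and Myl6 did not either.

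In the thin filament, cardiac and slow forms stood beside fast ones. Acta1 took 43.5% and 42.9% of the actin TPM. Acta2, the smooth muscle alpha-actin gene, took 26.5% and 28.1%, and Actc1 took 22.2% and 14.2%. By estimated counts, which are not per length, Acta2 came before Acta1 (38.3% and 39.5% against 35.6% and 34.1%). The cytoplasmic actins Actg1 (1716 and 2242 TPM) and Actb (963.5 and 1375 TPM) were lower in both libraries. The coding sequences of these genes are similar, 86.3% of bases for Acta1 with Actc1 and 85.4% for Acta1 with Acta2, so a part of their reads may be shared. The 3 muscle actins differ at 246 of 1131 coding positions. A stretch is shown because, of these 3 similar genes, Actc1 alone lay past 2-fold between the control libraries. The opening 90 coding bases, from the start codon on, were picked as the in-frame stretch of that length with the most differing positions. Capitals mark the 26 positions at which the 3 genes are not all alike.
Acta1: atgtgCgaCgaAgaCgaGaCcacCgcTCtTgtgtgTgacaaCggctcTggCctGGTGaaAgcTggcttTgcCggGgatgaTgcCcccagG
Actc1: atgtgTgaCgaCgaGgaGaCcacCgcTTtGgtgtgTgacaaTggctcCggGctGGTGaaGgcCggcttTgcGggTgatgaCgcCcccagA
Acta2: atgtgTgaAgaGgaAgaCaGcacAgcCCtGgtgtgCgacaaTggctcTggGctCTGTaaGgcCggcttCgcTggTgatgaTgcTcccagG

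Troponin C, the calcium sensor of the thin filament, came mainly from the slow and cardiac gene Tnnc1 (8623 and 6417 TPM) and less from the fast gene Tnnc2 (3977 and 2681 TPM). Troponin I, the inhibitory subunit, came from the slow gene Tnni1 (2289 and 1643 TPM) and the fast gene Tnni2 (1656 and 1168 TPM). The ranges of Tnni1 and Tnni2 overlapped, although Tnni1 was higher within each library. Troponin T, the tropomyosin-binding subunit, was led by the cardiac gene Tnnt2 (4408 and 3585 TPM), then the fast gene Tnnt3 (3607 and 2641 TPM) and the slow gene Tnnt1 (1201 and 986 TPM). Tropomyosin came from Tpm2 (6819 and 4932 TPM) and Tpm1 (3821 and 3396 TPM). The cardiac troponin I gene Tnni3 stood at 6.52 and 6.02 TPM, so cardiac forms were high for troponin T and C but not for I.

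In the Z-disc, Actn3, a fast-fibre alpha-actinin, led with 493 and 589 TPM. The non-muscle form Actn4 had 202 and 278 TPM, and the muscle form Actn2 had 96.4 TPM in replicate 1 but 23.3 in replicate 2. Myoz2, a Z-disc calsarcin, took 97.8% and 95.9% of the myozenin and myotilin family at 132 and 69.5 TPM. Of the giant proteins, Obsl1 led with 133 and 124 TPM, while Ttn (titin) had 14.2 and 10.7 TPM and Neb (nebulin) 21.8 and 13.4 TPM. Mybph, a myosin-binding protein, had 2372 and 2102 TPM, or 97.9% and 98.7% of its family.

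For membranes and calcium handling, Atp2a1, the fast-fibre calcium pump, took 83.2% and 77.2% of its family at 757 and 559 TPM. Casq2, the cardiac form of the calcium store protein calsequestrin, had 371 and 312 TPM against 6.58 and 5.91 for the skeletal form Casq1. The ryanodine receptor was Ryr1 (92.7% and 92.5%), with Ryr2 at no count, and the L-type channel was Cacna1s (56.5 and 59.5 TPM). The acetylcholine receptor held the fetal gamma subunit Chrng at 359 and 353 TPM, and the adult epsilon subunit Chrne at 0.11 and 0.05 TPM. Chrna1, Chrnd and Chrnb1, the other subunits, had 392 and 459, 150 and 140, and 82.8 and 96.9 TPM.

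In energy metabolism muscle and general forms coexisted. Ckm, muscle creatine kinase, had 2284 and 1451 TPM and Ckb, the brain form, 1109 and 1087. The general enolase Eno1 (3778 and 4229 TPM) exceeded the muscle form Eno3 (1356 and 1095 TPM). Pfkm led phosphofructokinase with 69.5% and 60.3%, and Pygm led glycogen phosphorylase with 93.8% and 88.8%. Slc2a1, the general glucose transporter, took 95.4% and 98.3% of its family, with the insulin-responsive Slc2a4 at 3.02 and 1.17 TPM. The muscle forms Cox6a2 (295 and 145 TPM) and Cox8b (290 and 224 TPM) of cytochrome oxidase were below the general forms Cox6a1 and Cox8a.

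In shPkm1 the leading paralogue was the same in 41 of the 47 families and in shPkm2 in 33. In shPkm2 the leader passed from Acta1 to the cytoplasmic Actg1, from Actn3 to Actn4, from Atp2a1 to Atp2a2, from Ckm to Ckb and from Myog to Myod1. These are counts of leaders in mean TPM with no test.

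Transcript use was read for 56 genes known for alternative exons or promoters, of which 53 had at least 2 deposited transcripts above 0. The leading transcript took over 50% in both libraries in 27 genes and was the same one in both in 42 of the 53. In 15 genes the leader was a predicted model. Pkm itself had 1644 TPM in replicate 1 and 2136 in replicate 2, with 1561 and 1613 in shPkm1 and 2978 and 2932 in shPkm2. NM_011099.3 took 65.3% and 71.0% of Pkm in the controls and NM_001253883.1 took 33.2% and 27.6%. They differ in 1 of 2 alternative exons of 167 bases, the downstream one (chr9:59675568-59675734, GRCm38, M2) in the former and the upstream one (chr9:59675029-59675195, M1) in the latter. The M2 transcript thus had the larger share in both control libraries. In Myl1 the leader was NM_001113387.1 with 58.8% and 65.8%, ahead of NM_021285.3 with 34.7% and 25.9%, and these differ in their first coding exons. In Capzb, the beta subunit of the actin capping protein, NM_001037761.2 took 79.7% and 68.0% and NM_009798.4 took 19.5% and 31.3%. They differ in the last coding exon, 100 against 85 bases. In Tpm1, NM_001164248.1 took 76.0% and 69.9%, and in Tnnt2, NM_011619.3 took 79.9% and 82.6%. Ptbp1, a repressor of muscle exons, was led by NM_001077363.2 (64.5% and 68.5%), which holds a 78-base coding exon that NM_008956.3 (32.6% and 29.0%) lacks. For Slc25a3, the mitochondrial phosphate carrier, the leader changed between the libraries (68.2% and 47.1% for XM_006513371.3). In genes with many deposited models the split was fine: the leading one of 35 Tnnt3 transcripts above 0 took 14.5% and 11.3%. Shares of transcripts that overlap are estimates of the counting program.

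Upstream sequence of contractile genes is shown because Acta1, Actc1 and Mylpf are among the 25 most abundant genes. The motifs searched on both strands of the 300 bases around the start (250 before and 50 after, RefSeq, GRCm38.p6) were the CArG box bound by serum response factor, the MEF2 site, the E-box CAGCTG that MyoD factors bind, TATAAA, the NF-kB site, and the core of the interferon-stimulated response element. The CArG box was searched as CC, 6 letters of A or T, and GG, and the response element core as GAAA, any 2 bases and GAAA. A promoter was found for 48 of 60 sarcomere genes. A CArG box was present in 6 of these (12.5%), a MEF2 site in 9 (18.8%) and CAGCTG in 19 (39.6%). Among 8530 genes with a promoter whose mean reached 50 counts the shares were 1.65%, 2.04% and 17.6%, and among all 27025 genes they were 1.81%, 3.70% and 18.3%. TATAAA was in 14 of the 48 (29.2%, against 8.28% of the 8530 genes) and an NF-kB site in 10 (20.8%, against 12.4%). The response element core was in 1 (2.08%, against 3.79%). Response element matches overlapped another motif in 4 of 1210 cases, NF-kB matches in 14 of 3250 and CAGCTG matches in 11 of 6059. MEF2 matches overlapped another motif in 230 of 1104 cases, TATAAA matches in 275 of 5421 and CArG matches in 21 of 541. A match describes letters and is no evidence of binding. The 250 bases before the start are given 5′ to 3′ on the gene's strand. In Acta1 (chr8:123894776-123895025, minus strand) capitals mark the CArG box, which begins 73 bases before the start. In Actc1 (chr2:114052876-114053125, minus strand) they mark the CArG box 47 bases before it. In Mylpf (chr7:127211358-127211607, plus strand) they mark CAGCTG, 51 bases before it.
Acta1: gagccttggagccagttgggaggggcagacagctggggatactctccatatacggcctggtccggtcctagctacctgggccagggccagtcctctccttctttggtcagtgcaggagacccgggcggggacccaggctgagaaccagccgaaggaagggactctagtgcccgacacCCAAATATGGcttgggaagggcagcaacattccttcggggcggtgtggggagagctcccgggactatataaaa
Actc1: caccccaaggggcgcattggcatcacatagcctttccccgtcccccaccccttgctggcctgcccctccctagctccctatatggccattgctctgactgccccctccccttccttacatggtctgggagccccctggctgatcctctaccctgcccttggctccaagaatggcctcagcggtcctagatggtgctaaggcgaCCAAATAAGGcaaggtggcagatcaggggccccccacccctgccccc
Mylpf: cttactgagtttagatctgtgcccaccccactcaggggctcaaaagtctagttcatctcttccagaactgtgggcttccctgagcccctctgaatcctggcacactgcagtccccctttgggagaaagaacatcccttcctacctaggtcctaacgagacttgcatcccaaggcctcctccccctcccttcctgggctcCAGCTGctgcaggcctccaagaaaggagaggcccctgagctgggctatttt

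The cycling background was low but present. All 62 cell cycle genes had at least 1 TPM in both libraries, with a median of 12 TPM in replicate 1 and 16.8 in replicate 2. Ccnd3, the D-type cyclin that muscle keeps, stood far above the rest with 1027 and 1010 TPM and took 98.9% and 98.4% of the D-type cyclins. Cdk4, its kinase partner, had 373 and 459 TPM. Ube2c, a ubiquitin enzyme of mitotic exit, had 89.0 and 118 TPM. Rrm2, the ribonucleotide reductase subunit, had 80.0 and 98.9 TPM, Cdk2 had 60.02 and 54.93 TPM and the replication clamp Pcna had 52.1 and 54.6 TPM. Mki67, the proliferation marker, had 9.37 and 12.6 TPM. Cell cycle exit genes stood beside these. Cdkn1a, the inhibitor p21, had 2841 and 2898 TPM, or 98.3% and 98.8% of its family.

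Set against the hairpin groups, most cell cycle genes were lower in the controls. These tests used edgeR's quasi-likelihood test over 12643 genes with Benjamini-Hochberg adjustment, and both comparisons share the control libraries. Against shPkm1, 44 of 62 were lower in shScr and 4 higher, beside 31.8% of all genes lower (63.1% called in either direction). The median of the list was -0.72 on the log2 scale and that of all genes 0.00. Against shPkm2, 58 were lower and 4 higher, beside 33.9% of all genes lower (68.0% in either direction), with a median of -2.13 against -0.01. The 4 higher genes were Ccnd3, Ccnd2, Cdk2 and E2f2 in both comparisons. Ccnd2 against shPkm2 (0.55, SE 0.17, edgeR adjusted p = 0.013) lost its call without shScr replicate 2 (0.20), without shPkm2 replicate 2 (0.40), with library totals (0.23) and on FPKM values (0.15 and 0.19). Mki67 had 40.0 and 38.3 TPM in shPkm1 and 126 and 97.9 in shPkm2, so no control library reached a hairpin library. Its log2 difference, shScr minus shPkm1, was -1.46 (SE 0.13, edgeR adjusted p = 5.4e-07), and minus shPkm2 it was -2.90 (SE 0.13, adjusted p = 5.3e-10). Ccnd3 went the other way, with 517 and 502 TPM in shPkm1 and 244 and 232 in shPkm2 (1.41, SE 0.12, edgeR adjusted p = 3.5e-07, and 2.58, SE 0.12, adjusted p = 7.8e-10). Ccnd1 was lower in shScr by 2.12 and 3.06 on the log2 scale (edgeR adjusted p = 3.9e-09 and 5.1e-11). Ube2c (-0.07, SE 0.12, adjusted p = 0.60) and Cdk4 (0.22, SE 0.11, adjusted p = 0.098) did not pass the edgeR test against shPkm1.

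The split of edgeR calls depends on the scaling. Of the called genes 49.7% were higher in shScr against shPkm1 and 50.2% against shPkm2. With library totals in place of the composition factor these were 34.2% and 30.7%, and the median of all genes moved to -0.19 and -0.33. The cell cycle list then had 48 and 58 lower members, beside 5116 and 6095 of all 12643 genes lower.

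The control cells carried a broad interferon signature. Interferons bind surface receptors whose Jak kinases activate transcription factors, among them Stat2 and Irf9, and these turn on antiviral effector genes. Of 54 response genes 53 had at least 1 TPM in both libraries, with a median of 43.3 TPM in replicate 1 and 53.3 in replicate 2. B2m, the light chain of major histocompatibility class I, had 1298 and 1346 TPM. Bst2 (tetherin), which holds budding virions at the membrane, had 1094 and 1381 TPM. Isg15, a ubiquitin-like modifier, had 1164 and 1291 TPM. All 3 were above 1000 TPM in both libraries. Ifit3, which acts with Ifit1 on viral RNA, had 469 and 646 TPM, Lgals3bp had 416 and 584 TPM and the class I heavy chain H2-K1 had 336 and 398 TPM. Signalling factors were measured as well, Stat2 at 82.2 and 97.2, Irf9 at 68.4 and 79.2 and Irf7 at 179 and 208. The ligands had few counts. Ifnb1 had 0.23 and 0.12 TPM from 2 and 1 counts, Ifna4 had 0.14 and 0 TPM from 1 and 0 counts, and Ifng had 0 and 1.08 TPM from 0 and 15 counts. The receptor genes Ifnar2 (60.3 and 68.1 TPM) and Ifnar1 (12.9 and 15.6 TPM) were expressed, and the sensors Ddx58 (57.8 and 69.4 TPM) and Ifih1 (24.9 and 23.3 TPM) too.

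Interferon response genes were higher in the controls than in each hairpin group. Against shPkm1, 52 of 54 passed as higher and none as lower, beside 31.4% of all genes higher, with a median of 3.01 against 0.00 for all genes. The exceptions were Ccl5 and Ifi27. Against shPkm2 all 54 passed as higher, beside 34.2% of all genes, with a median of 3.11 against -0.01. Scaled by library totals, 52 were higher and 1 lower against shPkm1, beside 2656 and 5116 of all 12643 genes, and 53 were higher against shPkm2, beside 2702 of all genes. Isg15 had 63.7 and 65.4 TPM in shPkm1 and 56.1 and 64.3 in shPkm2, well under the controls. The log2 difference of Isg15 was 4.63 (SE 0.13, edgeR adjusted p = 2.8e-11) and 4.80 (SE 0.13, adjusted p = 6.2e-12). Rsad2 (viperin), an antiviral radical enzyme, had 21.1 and 21.8 TPM in the controls, 0.18 and 0.21 in shPkm1 and 1.65 and 1.57 in shPkm2. Its log2 differences were 7.12 (SE 0.19, edgeR adjusted p = 2.5e-11) and 4.19 (SE 0.13, adjusted p = 2.5e-11). Cmpk2, a mitochondrial nucleotide kinase, differed by 6.76 (SE 0.24) and 3.01 (SE 0.16) on the log2 scale, both past the edgeR threshold. B2m differed by 0.94 (SE 0.12, edgeR adjusted p = 2.2e-05) and 1.26 (SE 0.12, adjusted p = 1.1e-06). The hairpins differ between groups, and an effect of carrying each hairpin cannot be told apart from an effect of its target here.

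**Figure D3:**
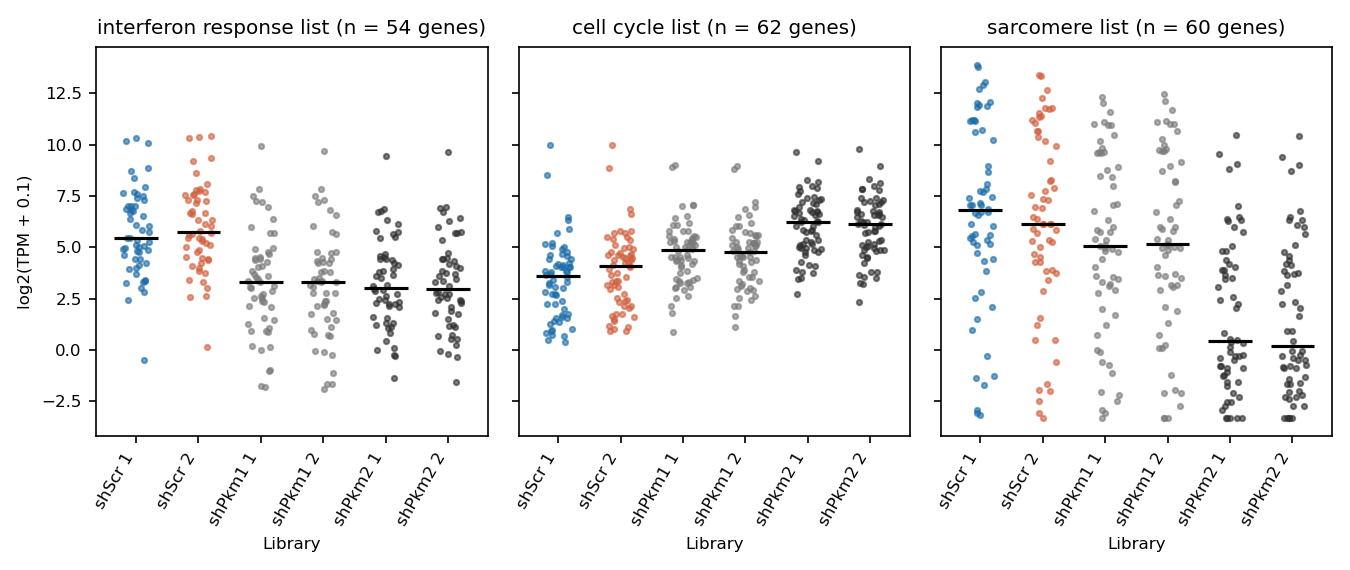
Levels on a log2(TPM + 0.1) scale of the members of 3 lists in all 6 libraries, 1 point per gene with the median as a bar. The control libraries (left pair in each panel) have higher interferon and sarcomere medians and lower cell cycle medians than the hairpin libraries, with interferon medians of 43.3 and 53.3 TPM.

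Of 54 interferon response genes 42 had a promoter in the table, and 21 of these held the response element core, against 3.79% of genes whose mean reached 50 counts and 3.99% of all genes. An NF-kB site was in 11 of the 42 (26.2%, against 12.4%) and TATAAA in 10 (23.8%, against 8.28%). Isg15 and Bst2 are shown because they are among the highest members. In Isg15 (chr4:156200819-156201068, minus strand) 3 overlapping matches begin 78, 72 and 66 bases before the start. In Bst2 (chr8:71537473-71537722, minus strand) 2 overlapping matches begin 130 and 124 bases before it. Capitals mark the matches.
Isg15: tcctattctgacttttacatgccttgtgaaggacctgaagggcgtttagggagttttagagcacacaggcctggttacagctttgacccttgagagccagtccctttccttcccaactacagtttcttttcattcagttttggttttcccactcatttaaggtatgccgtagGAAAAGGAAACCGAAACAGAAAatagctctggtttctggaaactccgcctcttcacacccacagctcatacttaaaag
Bst2: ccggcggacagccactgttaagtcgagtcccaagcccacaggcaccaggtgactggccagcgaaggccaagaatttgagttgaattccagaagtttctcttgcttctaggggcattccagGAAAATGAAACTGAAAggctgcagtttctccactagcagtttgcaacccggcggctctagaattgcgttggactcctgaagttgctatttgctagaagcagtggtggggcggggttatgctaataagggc

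Contractile, junction and respiratory genes were mostly higher in the controls than in each hairpin group. Of 55 tested sarcomere genes 52 were higher in shScr against each, beside 31.4% of all genes against shPkm1 and 34.2% against shPkm2. The medians of the list were 1.79 and 6.93 on the log2 scale, and those of all genes 0.00 and -0.01. Tpm3, which also makes non-muscle tropomyosin, was the sole member lower in shScr, and against shPkm2 alone did it pass. All 12 neuromuscular junction genes were higher against shPkm1 and 11 against shPkm2, and of 30 oxidative phosphorylation genes 28 and 29 were higher, beside the same shares of all genes. Of 21 myogenic regulators 8 were higher and 7 lower against shPkm1 (median 0.25), beside 31.4% and 31.8% of all genes, which is near the background. Against shPkm2, 9 were higher and 10 lower (median -0.37), beside 34.2% and 33.9%. The log2 difference of Myog was 0.94 against shPkm1 (SE 0.13, edgeR adjusted p = 3.2e-05). Against shPkm2 it was 5.35 for Myog (SE 0.15, edgeR adjusted p = 1.1e-11). Mymk differed by 1.41 and 7.36 (SE 0.13 and 0.17), both past the edgeR threshold. Pkm was higher by 0.63 (SE 0.13, edgeR adjusted p = 0.0011) against shPkm1 and did not pass against shPkm2 (-0.20, SE 0.13, adjusted p = 0.20). Against shPkm2 it passed as lower in shScr with library totals (-0.52), with limma on FPKM values (-0.53) and without shScr replicate 2 (-0.31), where the remaining control library is assumed to vary like the other groups.

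The 2 control libraries differed from each other more than the libraries of the other pairs did. Among genes whose mean reached 50 counts, 107 of 10619 lay at least 2-fold apart after scaling by the trimmed mean of M values (1.01%), 48 of them higher in replicate 2 (0.452%) and 59 lower (0.556%). The shPkm1 pair had 12 of 10949 genes past that mark (0.11%), 0.0548% in each direction. The shPkm2 pair had 8 of 10772 (0.0743%), with 0.0278% higher and 0.0464% lower in replicate 2. Compared as counts over genes whose mean reached 10 (12089, 12264 and 12025 genes), the control pair gave a chi-square per degree of freedom of 32.3, against 6.16 for the shPkm1 pair and 6.93 for the shPkm2 pair. That chi-square is scaled by library totals and grows with the counts of a gene, so the values depend on which genes are abundant. Acta1 had 265824 and 183542 counts in shScr and 1287 and 1297 in shPkm2. Each pair exceeded sampling noise, and none was a library deposited more than once. Of the 107 genes, 97 had at least 20 counts in the shPkm1 pair and 3 of these were 2-fold apart there, and of 72 such genes in the shPkm2 pair 0 were. With library totals the 2 directions were 62 higher and 46 lower, and with the ratio of deposited TPM, under which the median log2 ratio of all genes is 0.15 in place of 0.00, they were 80 and 36. With 1 library a side there is no test, and intervals of ratios (95%, exact, Clopper-Pearson) cover counting error alone.

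**Figure D4:**
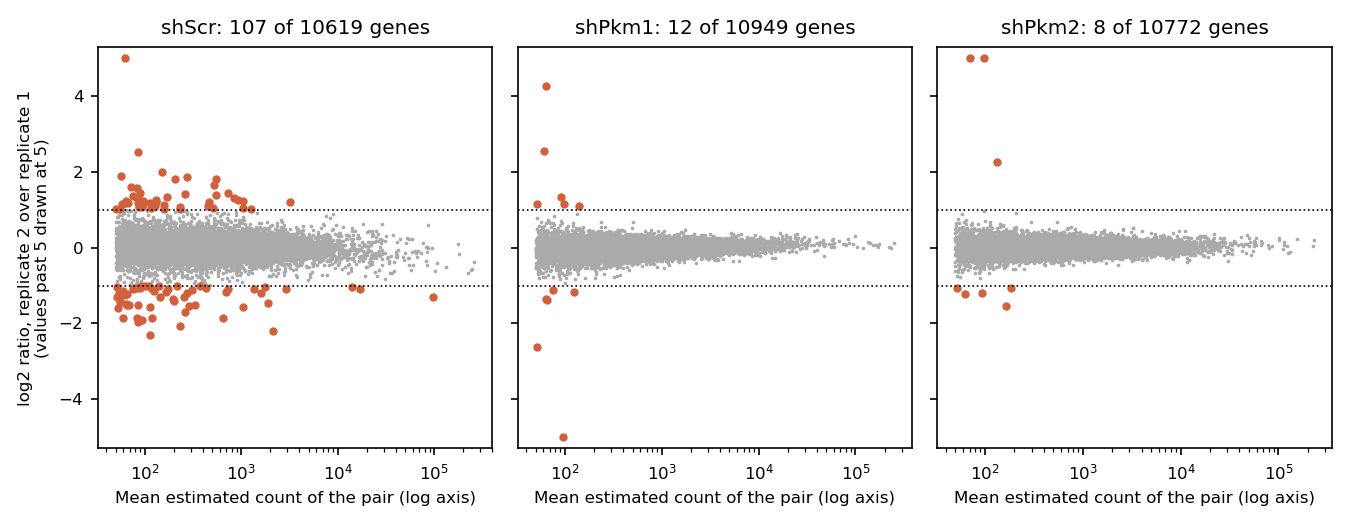
Log2 ratio of TMM-scaled counts, replicate 2 over replicate 1, against the mean estimated count of the pair (log axis), 1 point per gene, for each group. Orange points are genes at least 2-fold apart: 107 in shScr, 12 in shPkm1 and 8 in shPkm2. In shScr some lie at high counts, among them Actc1 with 133757 and 59855 counts.

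The contractile list lay lower in replicate 2. The median log2 ratio of 53 sarcomere genes was -0.55 relative to all genes, with 49 below the median of all genes and 8 at least 2-fold lower (0.556% of all genes). In the hairpin pairs the list stood at 0.16 (shPkm1) and -0.04 (shPkm2). Here and below, list medians of a hairpin pair cover only members that reached the mean-count threshold in that pair. Of the 8 sarcomere genes lower in the controls, only Actc1 (516 and 560 counts) reached it in shPkm2. The others, among them Actn2 (12 and 16 counts) and Myh8 (7 and 8), did not. The shPkm2 median therefore does not show how those genes varied. Excitation-contraction coupling genes followed at -0.27 (19 of 21 below), the cytosolic ribosome at -0.21 (34 of 40 below), energy buffering and glycolysis at -0.19 (20 of 28), hypoxia at -0.18 (12 of 15) and oxidative phosphorylation at -0.15 (25 of 30). In the shPkm1 and shPkm2 pairs excitation-contraction coupling stood at 0.10 and -0.01, energy buffering and glycolysis at 0.08 and 0.03 and hypoxia at -0.08 and 0.03. The ribosome (0.16 and 0.09) and oxidative phosphorylation (0.09 and 0.15) lists stood on the other side there, so shifts of this order also occurred between the hairpin replicates. Actn2 (chr13:12269426-12340732), a Z-disc alpha-actinin, had 3444 counts in replicate 1 and 829 in replicate 2 and was 4.59-fold lower in replicate 2 (interval 4.26 to 4.96). Mybpc2, the fast myosin-binding protein C, had 184 and 56 counts (3.63-fold, 2.68 to 4.99). Myh4 had 420 and 160 counts (2.90-fold, 2.41 to 3.504). The other sarcomere genes past 2-fold, named after their values were seen, were Myh8 (2707 and 1086 counts), Actc1 (133757 and 59855), Tcap (409 and 207), Myoz2 (1777 and 920) and Mybpc1 (2270 and 1221). By the ratio of deposited TPM, Tcap, Myoz2 and Mybpc1 stayed short of 2-fold, and with library totals Mybpc1 did. The abundant Myh3 (116496 and 96603 counts) and Acta1 (265824 and 183542) were under 2-fold apart. Actn3 (17084 and 20246) and Flnc (19328 and 26442) were slightly higher in replicate 2. The highest log2 ratio of the list was 0.69.

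Genes of other lists at least 2-fold lower were few. Of 18 myogenic regulators 1 was, Mef2c, and the list had a median of 0.02 relative to all genes, with 9 members above and 9 below. Mef2c (chr13:83504017-83667079) had 367 and 97 counts and was 4.18-fold lower in replicate 2 (3.34 to 5.29). Dhrs7c, a sarcoplasmic reticulum dehydrogenase, had 984 and 302 counts (3.60-fold, 3.16 to 4.11). Cap2, a cyclase-associated protein of muscle, had 392 and 134 counts (3.23-fold, 2.65 to 3.97). The muscle caveolin Cav3 (921 and 452 counts), the muscle oxidase subunit Cox6a2 (2138 and 1028), the muscle phosphoglycerate mutase Pgam2 (3789 and 1976) and the glucose transporter Slc2a4 (98 and 38) were each over 2-fold lower. Igf2, a growth factor made by differentiating myoblasts, had 22570 and 11688 counts (log2 ratio -1.09). By the ratio of deposited TPM, Igf2 and Pgam2 stayed short of 2-fold. Cdkn1c (272 and 117 counts), a cell cycle inhibitor, and Ache (200 and 90), acetylcholinesterase, were also lower. Less abundant genes among the 10 lowest were Trp63 (131 and 37 counts), Fsd2 (144 and 42) and Septin4 (128 and 39). Pcdhga2 had 184 and 41 counts, but the protocadherins of its cluster share their last exons, so its count is uncertain. In contrast Myog (36850 and 35191 counts), Mymk (41841 and 40363) and Myod1 (6455 and 6647) were close to equal.

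Cell cycle, inflammatory and matrix lists lay higher in replicate 2. The cell cycle list had a median of 0.28 relative to all genes, with 56 of 61 above the median of all genes but 0 at 2-fold, where 0.452% of all genes stood. In the hairpin pairs the cell cycle members that reached the mean-count threshold there stood at 0.01 and 0.00. Tk1 (386 and 668 counts) and Birc5 (333 and 577 counts), named after their values were seen, lie near the top of the list. In the controls the log2 ratios of the cell cycle list ran from -0.33 to 0.66. The inflammatory and chemokine list had a median of 0.26 (17 of 22 above), growth factor signalling 0.25 (22 of 29), histones 0.19 (9 of 12), the extracellular matrix 0.15 (37 of 47) and the interferon response 0.07 (32 of 54 above, none at 2-fold). In the shPkm1 and shPkm2 pairs the inflammatory list stood at -0.03 and 0.04, growth factor signalling at -0.01 and -0.10 and the matrix at 0.06 and -0.07. Histones (0.15 and -0.02) and the interferon response (-0.06 and 0.05) stood apart there by sizes near those in the controls in at least 1 pair. Of the inflammatory list 4 genes were at least 2-fold higher. Saa3, an acute-phase protein, had 55 and 245 counts and was 4.03-fold higher in replicate 2 (3.00 to 5.50). The neutrophil chemokine Cxcl5 had 223 and 869 counts (3.52-fold, 3.04 to 4.10), and its relative Cxcl1 had 260 and 664 (2.31-fold, 2.00 to 2.68). Ccl2, a monocyte chemokine, had 311 and 708. The matrix protease Mmp9 had 109 and 438 counts (3.63-fold, 2.94 to 4.53), the lysophospholipase Enpp2 had 233 and 806 (3.13-fold, 2.70 to 3.64) and the calcium buffer Pvalb had 84 and 324 (3.49-fold, 2.74 to 4.49). The collagen gene Col23a1 (23 and 146 counts), Cd7 (22 and 91), Pi15 (33 and 110) and Kcnmb4 (39 and 128) were also among the 10 highest. Sfrp2 (70 and 159 counts), a Wnt antagonist, and the histone gene H3c14 (39 and 112) were over 2-fold higher as well. Ppp1ccb had 0 and 124 counts, at least 37.4-fold higher against a floor of 3 counts per library, but it has a near-identical relative and its count is uncertain.

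**Figure D5:**
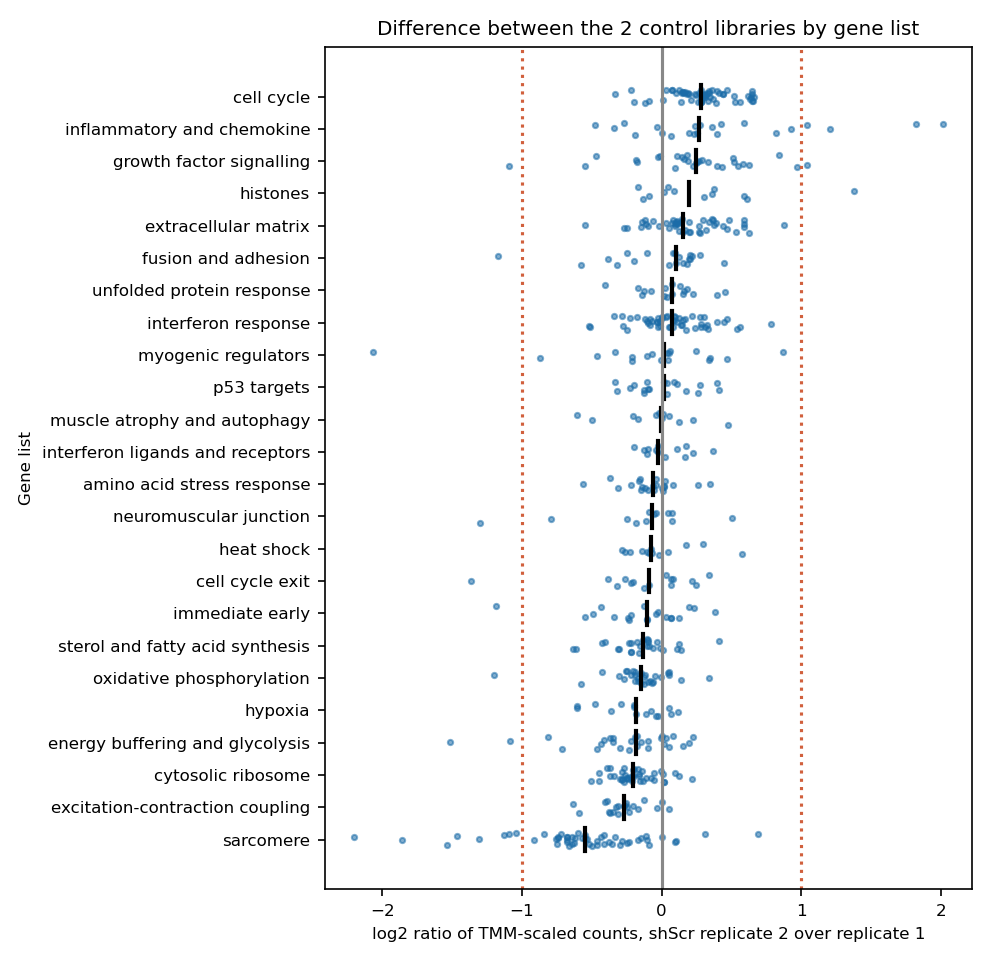
Log2 ratio of TMM-scaled counts, replicate 2 over replicate 1 of the controls, for the members of 24 gene lists whose mean reached 50 counts, 1 point per gene, with list medians as bars, the median of all genes as a grey line and 2-fold marks as dotted lines. Sarcomere genes lie lowest (median -0.55 relative to all genes) and cell cycle genes highest (0.28), with inflammatory outliers past 2-fold.

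Beside these differences, the summed markers of differentiated muscle stood at 29904 and 23066 TPM in replicates 1 and 2 and those of myoblasts at 635 and 748 TPM, and their part in the list differences was not tested. Acta1 (15317 and 10686 TPM) gave most of the muscle gap. Ckm, Tnnt3, Myh3, Actn2 and Ttn were also lower in replicate 2, and Des was higher (2248 and 2322 TPM). Myog (2126 and 2051 TPM) and Mymk (2630 and 2565) were nearly equal. Cdh15 (312 and 404 TPM) gave most of the myoblast gap, and Pax7 (0.72 and 0.42) went the other way. The markers of macrophages and leukocytes summed to 0.82 and 1.72 TPM with Tyrobp at 0 in both libraries. The promoter table held 39 of the 59 genes lower in replicate 2, of which 7 (17.9%) had a MEF2 site against 2.04% of genes whose mean reached 50 counts, and 3 (7.69%) a CArG box against 1.65%. Of the 48 higher genes 32 had a promoter, of which 4 (12.5%) had a MEF2 site, also against 2.04%, and 8 had an NF-kB site against 12.4%, with 5 (12.8%) among the lower genes. Both directions held TATAAA (23.1% of the lower and 21.9% of the higher genes) above the 8.28% of genes past that mean, and CAGCTG (25.6% of the lower and 25% of the higher genes) above 17.6%. Of 26 inflammatory genes 19 had a promoter, and 10 of these (52.6%) held an NF-kB site. The promoter of Cxcl1 (chr5:90890995-90891244, plus strand) is shown because this chemokine is among those higher in replicate 2. Capitals mark 2 overlapping matches that begin 71 and 70 bases before the start.
Cxcl1: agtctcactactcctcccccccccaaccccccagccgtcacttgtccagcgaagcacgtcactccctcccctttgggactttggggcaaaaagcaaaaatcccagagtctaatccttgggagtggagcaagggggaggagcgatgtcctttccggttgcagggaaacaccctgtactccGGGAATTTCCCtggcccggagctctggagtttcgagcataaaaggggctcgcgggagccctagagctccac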

How the data were processed

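Total RNA of 6 C2C12 samples at 48 h was made into libraries by BGI, per the labels' protocols. The submitters' processing notes name HISAT, StringTie, Bowtie, RSEM and DESeq2 and build mm10; their roles and versions are not given in the sources used here. The authors deposited 1 table of 57920 RefSeq transcripts with estimated counts, FPKM values and TPM values per library, the last pair scaled by transcript length and depth; 9 columns of group means were not used. TPM and estimated counts were added per gene and counts rounded. Symbols and positions came from RefSeq GRCm38.p6 (17445 of 17558 genes), coding exons from GENCODE. Library totals ran from 18216896 to 19796036.

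All 6 libraries entered edgeR 4.0.16 (quasi-likelihood, TMM, minimum 10 counts, Benjamini-Hochberg, threshold 0.05). The 2 control libraries were compared by TMM-scaled ratios for genes with a mean of 50 or more counts, with exact Clopper-Pearson intervals and no test. Scripts were tested on simulated data. Genes were named by rule: 9 genes of myogenesis, fusion, proliferation and the hairpin target, the 25 highest in TPM, leaders and runners-up of families, leading transcripts, the 6 highest interferon and cell cycle genes and their 2 largest called differences each way, and, between control libraries, the 10 most different each way and up to 3 per list past 2-fold. Further family and list members are named for context, chosen after their values were seen. Members and lists were chosen with earlier results of these data known. Alternatives were DESeq2 1.42.0, limma 3.58.1 on log2(FPKM + 1) and log2(FPKM + 0.1), other scalings and filters, a replicate block and leaving out each library. Plots used matplotlib 3.10.9. Some genes that the rule covers are not reported here.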

Additional observations from a re-analysis of the deposited data

How the results depend on the processing

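Between the control libraries, the numbers of genes at least 2-fold higher and lower in replicate 2 (48 and 59) became 80 and 36 by the ratio of deposited TPM, 163 and 179 with a mean of at least 10 counts, 18 and 23 with at least 200, and 246 and 239 at 1.5-fold. The share of the 25 most abundant genes was 13.2% by estimated counts, which are not per length, in place of 22.6% by TPM. By the mean share of counts over both libraries, 45 of 47 families kept their leader, while Acta2 came before Acta1 and Ttn before Obsl1. Leaving out 1 library gave 20.6% to 24.6% for that share, 46 to 47 families and 46 to 49 transcript leaders kept, and 10993 to 11093 detected genes. It gave 6047 to 8285 edgeR calls against shPkm1 and 7231 to 8793 against shPkm2, beside 7984 and 8602; there 1 group has a lone library, assumed to vary like the other groups. DESeq2 called 7074 and 7811.

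Among named genes, 2 values that did not pass the edgeR test changed sign. Pax7 against shPkm1 (0.25) ranged from -0.17 to 0.68 without 1 library, and was -0.0071 and -0.032 with limma on log2(FPKM + 1) and log2(FPKM + 0.1). Ube2c against shPkm1 (-0.07) ranged from -0.20 to 0.039 without 1 library. The cause was not tested. Of values that did not pass, 4 passed under some alternatives: Pkm against shPkm2 under 4, and against shPkm1 Myf5 under 4, Rrm2 under 3 and Cdk4 under 1. Ccnd2 against shPkm2 lost its call under 5.

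With a replicate block 7922 and 8566 genes passed. The labels share only replicate numbers, and the deviations of same-numbered libraries correlated at -0.03, 0.04 and 0.05. Such correlations between single pairs cannot show whether the numbers mark a shared batch. Depth limits genes such as Myf6 and Pax7, which had under 50 counts in each control library.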
